A study of Mus musculus with 12 samples.

Results

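The laminin and integrin genes of the mouse were followed in 4 kinds of cell sorted from developing cochlear tissue: spiral ganglion neurons (SGNs), glia, otic mesenchyme (OM) and hair cells (HCs). The hair cells held vestibular as well as cochlear ones, the vestibular kind making up 13 of 36 and 14 of 32 on the plates of E18.5. At E16.5, replicates 1 and 3 held 4 and 8 hair cells, of which fewer than 3 on either plate were named cochlear. All 5 hair cells of E17.5 were named cochlear. Members were the gene columns of the count table of the laminin alpha, beta and gamma chains (Lama, Lamb and Lamc), Itga with a number or letter, and Itgb1-8. This rule found 37 members among the 24489 genes of the table, 11 laminin chains and 26 integrin chains. No measured value entered the rule.

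Laminins are secreted trimers of an alpha, a beta and a gamma chain that polymerise into the basement membrane, the sheet of matrix on which epithelia and Schwann cells rest. Integrins are paired alpha and beta chains of the cell surface that bind laminins, collagens, fibronectin and other ligands and couple them to actin, and the alpha chain largely sets which ligand is bound. In peripheral nerve, glia lay down the basement membrane around axons and hold it through laminin-binding integrins, while growing neurites of sensory ganglia use integrins to move over laminin.

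Cells carrying the tdTomato reporter were sorted into 384-well plates and sequenced by Smart-seq2, a full-length method that carries no molecule barcodes. Each of the 12 plates was 1 sample, with 1 plate at E17.5 and 3 at E16.5. The remaining stages, from E14.5 to postnatal day 3 (P3), had 2 plates each. The labels give PVcre;Ai14 for 11 plates, a parvalbumin Cre driver with the Ai14 tdTomato reporter, and TrkCcre, Cre from the neurotrophin receptor locus Ntrk3, for replicate 2 of E14.5. The methods of the study name the Ntrk3 driver for E14.5, so the driver of replicate 1 of E14.5 is uncertain. No group carried a mutation or a treatment. The sort took reporter-positive cells, so the glia, OM and HCs on these plates are those that passed it. The study holds its OM cells to be likely contaminants of the sort, and it removed glial genes as contamination. Whether the glia and OM here carried the reporter was not tested. Tissue of several embryos or pups was pooled and no label ties a plate to an animal, so the p-values measure the spread between plates, which may be technical.

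After filtering, 4226 of 4608 wells were kept, with 80997594 to 303906928 counts per plate. Cells were clustered within each stage without the 37 members and named from marker genes, which gave 2272 SGN-like, 1185 glia-like, 499 OM-like and 85 HC-like cells, with 185 left unnamed. Counts were then summed per class and plate and scaled to library size with TMM factors (CPM). Only the 6 plates of the plate series SS2_20 (2 of E14.5, 2 of E15.5, replicate 3 of E16.5, and E17.5) held SGN-like, glia-like and OM-like cells in number, and the classes were compared within those plates. On them the summed SGN markers ran from 10439 to 13297 CPM in SGN-like cells and the summed glia markers from 28.5 to 179 CPM, against 9981 to 19442 CPM in glia-like cells. Summed OM markers ran from 3561 to 16004 CPM in OM-like cells and from 26.0 to 108 CPM in SGN-like cells. HC-like cells were few (4 to 36 per plate on 5 plates), and their sums held 1471 to 4799 CPM of HC markers together with 1498 to 4773 CPM of cartilage markers (26.9 to 105 in SGN-like cells), 906 to 3732 CPM of otic epithelium markers and 317 to 1763 CPM of glia markers. The cartilage markers lay above the HC markers on 3 of the 5 plates, and the part of any of these in the results on HC-like cells was not tested.

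Of the 37 members, 29 had a mean of at least 5 CPM in a class on the plates used. The other 8 (Lama3, Lamb3, Itga10, and the leukocyte chains Itgad, Itgae, Itgam, Itgax and Itgb2) had class means of at most 4.69 CPM and no sum above 14.4 CPM. The heat map of members by plate shows the layout of what follows.

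**Figure D1:**
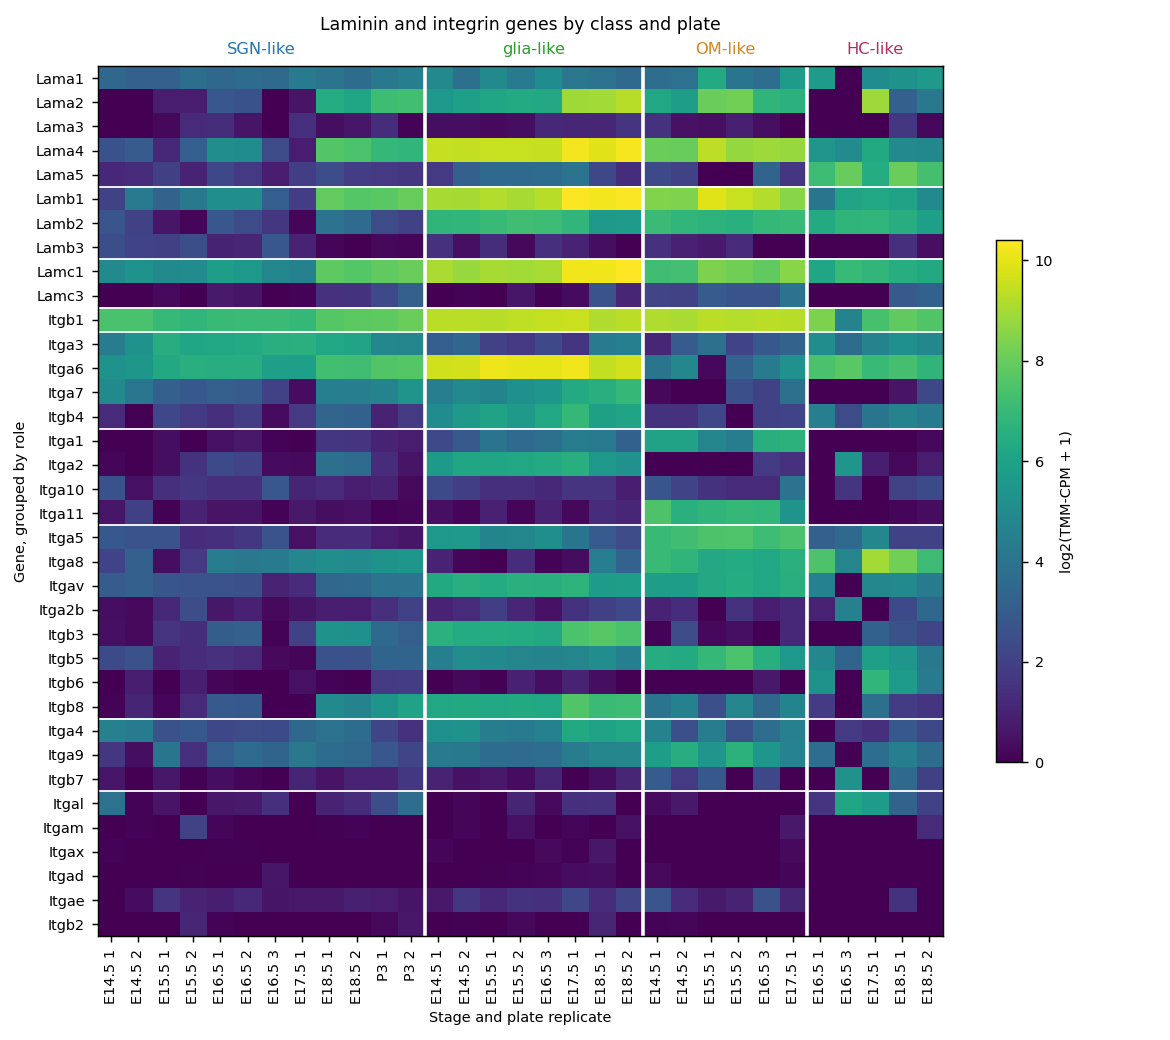
Heat map of the laminin and integrin genes (rows, by role) in each sum of 1 class on 1 plate (columns, by class and stage), coloured by log2(TMM-CPM + 1). Lama4, Lamb1, Lamc1 and Itgb1 stand high through the glia-like and OM-like columns, Itga6 through the glia-like columns, and the late SGN-like columns take on the same rows.

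Glia-like and OM-like cells carried the genes of a complete laminin trimer and SGN-like cells of the same plates carried little of any chain. Per kilobase of exon, so that genes can be compared, the alpha chains summed to 78.1 ± 25.8 CPM per kb in glia-like cells and 47.4 ± 19.2 in OM-like cells, against 1.75 ± 0.42 in SGN-like cells (SD, n = 6 plates each). The lowest glia-like plate was at 64.0 and the lowest OM-like plate at 26.3, both far above the highest SGN-like plate at 2.36. HC-like cells summed to 28.8 ± 10.3 CPM per kb (SD, n = 5 plates). Beta chains gave the same order of glia-like (89.2 ± 30.2), OM-like (75.9 ± 24.0), HC-like (19.9 ± 5.95) and SGN-like cells (1.89 ± 0.88 CPM per kb). Gamma chains stood at 75.0 ± 33.2 in glia-like, 31.6 ± 11.6 in OM-like and 3.84 ± 0.52 CPM per kb in SGN-like cells. Glia-like and OM-like plates overlapped for the alpha and beta sums and not for the gamma sum, OM-like and HC-like plates overlapped for the alpha sum and not for the beta sum, and no SGN-like plate of this plate series reached a plate of another class. The HC-like plates include E18.5, where the SGN-like sums held glial RNA and stood at 23.3 and 20.2 (alpha) and 26.2 and 22.2 CPM per kb (beta). The HC-like plates ran from 20.9 to 46.2 (alpha) and from 12.5 to 26.0 CPM per kb (beta). The leading chain differed by class: Lama4 held 85.1% of the alpha sum per kb in glia-like and 73.2% in OM-like cells, Lama5 held 54.5% in HC-like cells (except at E17.5, where Lama2 led with 28.8 against 7.55 CPM per kb), and Lama1 held 67.1% of the small SGN-like sum.

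Of the 33 members tested, 16 were higher in glia-like than in SGN-like cells and 2 were lower, on sums fitted with the plate as a block (edgeR quasi-likelihood, adjusted p under 0.05 over all genes). Over all 15922 genes tested, 51.2% were called, 26.9% were called higher and 24.3% lower. The median log2 difference was 1.69 over the members and 0.05 over all genes. Of the 16 members called higher, 15 belong to the glial code, which is 15 of the 16 members that the code holds. The glial code is a list the study drew from the E18.5 cells of this series by correlation with Sox10, so this count is not independent evidence of its direction.

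The laminin chains called higher in glia-like cells were Lama2, Lama4, Lamb1, Lamb2 and Lamc1. Lama4, an alpha chain of vessel and nerve basement membranes, had a lowest, median and highest level of 704, 730 and 1183 CPM in glia-like cells and of 0.718, 4.64 and 7.53 CPM in SGN-like cells. The plates of the 2 classes did not overlap, and the log2 difference was 7.58 (SE 0.59, adjusted p = 3.28e-07). Lamb1 ran at 511, 558 and 1300 CPM against 2.68, 8.26 and 19.3 CPM (log2 difference 6.28, SE 0.57, adjusted p = 1.20e-06). Lamc1, the gamma chain shared by most laminins, was on every plate of neurons, as was Lama1, and stood at 22.8, 30.8 and 39.4 CPM in SGN-like cells and 439, 529 and 1173 CPM in glia-like cells (log2 difference 4.24, SE 0.28, adjusted p = 8.80e-08). Lama2, the alpha chain of Schwann cell and muscle basement membrane, was at 46.0, 73.3 and 480 CPM in glia-like cells and at most 0.800 CPM in SGN-like cells, and Lamb2 ran from 110 to 150 CPM against at most 5.73 CPM. Every glia-like plate lay above every SGN-like plate for these 5 chains.

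Among the laminin-binding integrins the classes held different alpha chains. Itga6, which pairs with Itgb1 or Itgb4, was at 804, 1043 and 1159 CPM in glia-like cells (lowest, median, highest), while neurons had 40.0, 57.8 and 94.9 CPM and OM-like cells had 0.172, 16.8 and 37.9 CPM. These 3 ranges did not overlap. The difference between glia-like and SGN-like cells was 3.97 on the log2 scale (SE 0.59, adjusted p = 8.65e-05), and OM-like cells were below SGN-like cells by a log2 difference of -1.89 (SE 0.57, adjusted p = 0.0138). That last call was lost without replicate 2 of E15.5 (log2 difference -1.60, adjusted p = 0.0578). Itga3, the other widely used laminin receptor chain, went the other way, with 19.9, 79.6 and 96.5 CPM in SGN-like cells against 1.99, 3.49 and 10.6 CPM in glia-like and 1.20, 6.64 and 13.3 CPM in OM-like cells. Both classes lay below every SGN-like plate, and the log2 differences were -3.71 (SE 0.67, adjusted p = 0.000452) and -3.46 (SE 0.63, adjusted p = 0.00046). Per kb, Itga3 made up 58.2% of the laminin-binding chains in SGN-like cells and 0.687% in glia-like cells, where Itga6 made up 88.1%.

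Itgb4, the partner of Itga6 in hemidesmosomes and in myelinating glia, had 32.8, 55.8 and 121 CPM in glia-like cells and at most 3.79 CPM in SGN-like and 3.61 CPM in OM-like cells. The glia-like plates lay apart from both other classes, with log2 differences of 5.39 to SGN-like (SE 0.87, adjusted p = 0.000165) and, for OM-like against glia-like cells, -4.76 (SE 0.82, adjusted p = 0.00104). Itga7, a laminin receptor chain of muscle, was at 21.1 to 82.1 CPM in glia-like and 0.261 to 30.9 CPM in SGN-like cells. Those ranges overlapped and the difference did not pass the test (log2 difference 1.44, SE 1.29, adjusted p = 0.38). Itgb1, the beta chain that pairs with most of these alpha chains, was present in all classes. Its levels were 114, 129 and 169 CPM in SGN-like, 633, 668 and 757 CPM in glia-like and 543, 615 and 646 CPM in OM-like cells. Glia-like and OM-like cells lay above SGN-like cells by log2 differences of 2.28 (SE 0.12, adjusted p = 1.19e-08) and 2.17 (SE 0.12, adjusted p = 1.74e-08), while the 2 overlapped with each other (log2 difference -0.12, SE 0.11, adjusted p = 0.5).

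The collagen-binding alpha chains divided glia from mesenchyme. Itga2 was at 49.8, 71.2 and 91.0 CPM in glia-like cells and at most 2.41 CPM in OM-like cells, while Itga11 was at 40.9, 115 and 180 CPM in OM-like cells and at most 1.03 CPM in glia-like cells. Neither pair of ranges overlapped. For OM-like against glia-like cells the log2 difference was -7.55 for Itga2 (SE 1.14, adjusted p = 0.000385) and 7.96 for Itga11 (SE 0.92, adjusted p = 5.26e-05). Itga1 was at 19.6, 62.7 and 102 CPM in OM-like and 3.95, 12.5 and 19.6 CPM in glia-like cells, ranges that touched without overlapping (19.58 against 19.56 CPM at the edge), and the log2 difference was 2.49 (SE 0.59, adjusted p = 0.00825). SGN-like cells had at most 1.86 CPM of Itga2, 2.90 CPM of Itga11 and 0.320 CPM of Itga1.

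**Figure D2:**
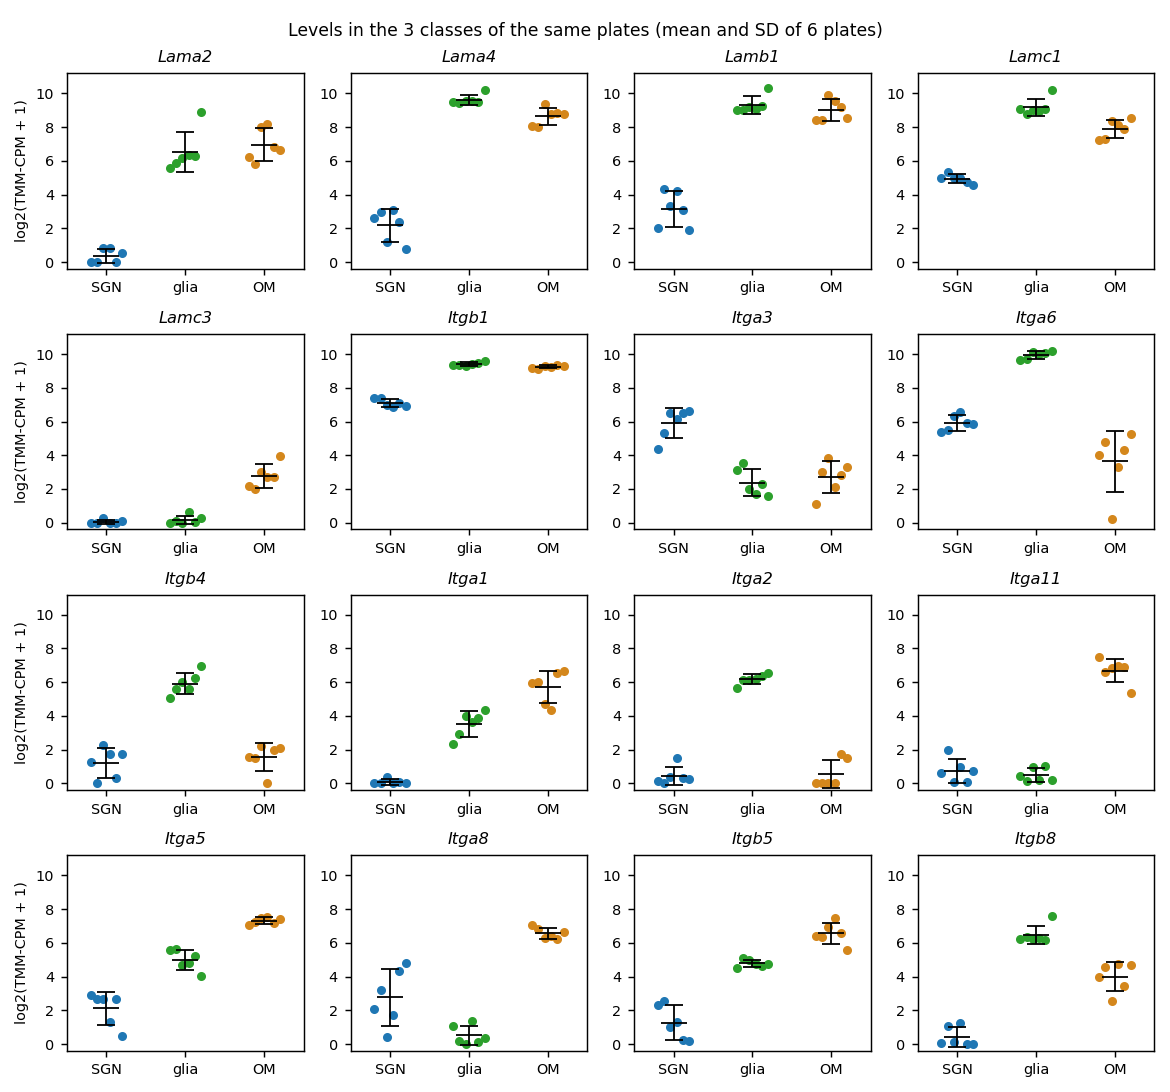
Levels of 16 laminin and integrin genes as log2(TMM-CPM + 1) in SGN-like, glia-like and OM-like cells of the same 6 plates. Points are plates in order of stage from E14.5 to E17.5, and bars give the mean and SD. Itga3 is the gene highest in SGN-like cells, Itga6, Itga2, Itgb4 and Itgb8 stand out in glia-like cells, and Itga11, Itga5 and Itga8 in OM-like cells.

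The chains that bind the RGD motif of fibronectin, vitronectin and latent TGF-beta also differed by class. Itga5, the fibronectin receptor chain, was at 132, 160 and 188 CPM in OM-like, 15.7, 31.2 and 49.1 CPM in glia-like and 0.392, 5.34 and 6.39 CPM in SGN-like cells, with no overlap. Itga8, a receptor chain for nephronectin and fibronectin, was at 72.7, 90.7 and 131 CPM in OM-like cells, at 0.320, 5.70 and 27.5 CPM in SGN-like cells and at most 1.53 CPM in glia-like cells. OM-like cells lay above both other classes for Itga8 (log2 difference 3.80 to SGN-like, SE 1.02, adjusted p = 0.00719, and 8.14 to glia-like, SE 1.20, adjusted p = 0.000327). The glia-like cells were below the SGN-like cells, although some plates overlapped (log2 difference -4.34, SE 1.14, adjusted p = 0.00616).

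Itgav, the common alpha partner of Itgb3, Itgb5, Itgb6 and Itgb8, was shared by glia-like (78.2, 90.8 and 104 CPM) and OM-like cells (54.8, 74.0 and 90.5 CPM) and was at most 8.12 CPM in SGN-like cells. Its beta chains were divided: Itgb3 ran at 77.0 to 174 CPM in glia-like cells and at most 4.38 CPM in OM-like cells, and Itgb8, which activates latent TGF-beta, at 72.0 to 189 CPM against 4.82 to 25.8 CPM. Itgb5 went the other way, at 46.3 to 176 CPM in OM-like and 21.5 to 33.1 CPM in glia-like cells. For OM-like against glia-like cells the log2 differences were -7.40 for Itgb3 (SE 1.05, adjusted p = 0.000255), -2.64 for Itgb8 (SE 0.59, adjusted p = 0.00582) and 1.87 for Itgb5 (SE 0.55, adjusted p = 0.0251), and the plates of the 2 classes did not overlap for any of these beta chains. The call for Itgb5 was lost without replicate 1 or replicate 2 of E15.5 (adjusted p = 0.078 and 0.0946). Of the VCAM and tenascin receptor chains, Itga4 was higher in glia-like than in SGN-like cells (18.3 to 78.5 against 4.09 to 22.2 CPM, adjusted p = 0.00732) and Itga9 in OM-like than in SGN-like cells (23.5 to 102 against 0.322 to 16.3 CPM, adjusted p = 0.00497).

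In all, 16 members were higher and 2 lower in OM-like than in SGN-like cells, where 51.7% of all genes were called, 26.3% higher and 25.4% lower, and the member median was 1.99 against -0.04 for all genes. Between OM-like and glia-like cells 6 members were higher and 7 lower, where 22.8% of all genes were called, 11.5% higher and 11.4% lower, and the medians were -0.24 and -0.09. The 7 members lower in OM-like than in glia-like cells (Lamc1, Itga6, Itga7, Itgb4, Itga2, Itgb3 and Itgb8) all belong to the glial code, which does not stand as independent evidence for them. The 6 higher ones were Lamc3, Itga1, Itga11, Itga5, Itga8 and Itgb5. The call of Itga7 was the least steady of them (log2 difference -4.10, SE 1.39, adjusted p = 0.0491) and was lost without either E14.5 plate, either E15.5 plate or replicate 3 of E16.5 (adjusted p between 0.079 and 0.11). Lama1, an embryonic alpha chain, was called higher in OM-like than in SGN-like cells (log2 difference 1.18, adjusted p = 0.0425) at 12.2, 14.9 and 81.9 CPM against 8.06, 10.7 and 18.1 CPM. The ranges overlapped, and the call was lost without replicate 2 of E14.5, either plate of E15.5 or the plate of E17.5, with a log2 difference of 0.70 without replicate 1 of E15.5.

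The partners of these genes in the basement membrane followed the laminins. Of 14 basement membrane genes and other laminin receptors, 12 were higher in glia-like than in SGN-like cells and none lower (edgeR, median log2 difference 4.97), and 10 were higher and 1 lower in OM-like cells. Over all genes 26.9% were called higher and 24.3% lower in glia-like cells, and 26.3% and 25.4% in OM-like cells. These shares are the background of each count in this paragraph. Col4a1, the main collagen IV chain, had 397 to 711 CPM in glia-like and 369 to 1129 CPM in OM-like cells against 1.13 to 4.83 CPM in SGN-like cells. Nid2, a laminin to collagen IV linker, was among the 3 largest differences in glia-like cells (log2 difference 8.04, SE 0.65), beside Postn (9.85, SE 0.89). Bcam, a laminin alpha-5 receptor, was the gene lower in OM-like cells (log2 difference -5.26 to SGN-like, SE 0.94). Among 10 other integrin ligands, 5 were higher and 2 lower in glia-like cells and 7 higher and 1 lower in OM-like cells. Fn1, fibronectin, was among the largest for OM-like against both SGN-like (8.14, SE 0.55) and glia-like cells (4.68, SE 0.46), and Vtn, vitronectin, for OM-like against glia-like cells (9.11, SE 1.14). Spp1, osteopontin, was lower in both classes than in SGN-like cells (log2 difference -8.64 in glia-like, SE 0.75, and -5.58 in OM-like, SE 0.66). Of 23 adaptors and effectors, 14 were higher and 3 lower in glia-like and 12 higher and 6 lower in OM-like cells. Parvg, a parvin better known from blood cells, was called lower in both at a low level, with 0.239 to 5.87 CPM in SGN-like cells, at most 0.0402 CPM in glia-like cells and, on 1 OM-like plate, 6.30 CPM, above every SGN-like plate.

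The promoter windows of 4 members that each stood out in 1 class are given here to show the sequence at the start of the genes. They run from 250 bases before to 50 bases after the annotated start in RefSeq (GRCm38.p6, 5′ to 3′ on the strand of the gene), and capitals mark 3 motifs that were searched on both strands and do not overlap here. The first is the GC box, spelled GGGCGG. The second is the TATA box, spelled TATAAA. The third is the E-box of the kind spelled CAGGTG. Of the 37 members, 23 matched a window. Over all 32851 windows, 35.7% held a GC box, 13.6% a TATA box and 20.2% an E-box. Of the 23 members, 11, 0 and 8 held these motifs in any of their windows, which counts genes and not windows. The window of Itga3 (chr11:95076665-95076964, minus strand) held 3 GC boxes and 1 E-box, that of Itga2 (chr13:114932051-114932350, minus strand) 1 GC box, that of Itga11 (chr9:62677605-62677904, plus strand) 1 E-box, and that of Itgb6 (chr2:60722554-60722853, minus strand) none of these letters.
Itga3: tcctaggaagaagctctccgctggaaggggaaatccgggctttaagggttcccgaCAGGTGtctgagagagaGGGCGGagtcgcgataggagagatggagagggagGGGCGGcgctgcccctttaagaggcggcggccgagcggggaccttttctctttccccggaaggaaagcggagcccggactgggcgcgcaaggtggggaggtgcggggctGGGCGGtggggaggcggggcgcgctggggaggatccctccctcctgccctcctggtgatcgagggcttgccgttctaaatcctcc
Itga2: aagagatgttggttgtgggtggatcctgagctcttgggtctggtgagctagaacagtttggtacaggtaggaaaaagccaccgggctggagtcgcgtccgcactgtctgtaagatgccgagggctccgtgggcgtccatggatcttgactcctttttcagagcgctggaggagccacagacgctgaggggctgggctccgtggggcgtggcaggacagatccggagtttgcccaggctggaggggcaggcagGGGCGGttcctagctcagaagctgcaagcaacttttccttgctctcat
Itga11: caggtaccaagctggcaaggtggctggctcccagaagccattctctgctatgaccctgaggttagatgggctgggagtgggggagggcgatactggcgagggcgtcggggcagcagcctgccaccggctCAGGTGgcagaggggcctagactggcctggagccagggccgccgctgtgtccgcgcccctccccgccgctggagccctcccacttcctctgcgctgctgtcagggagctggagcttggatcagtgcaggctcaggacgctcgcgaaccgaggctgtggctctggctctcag
Itgb6: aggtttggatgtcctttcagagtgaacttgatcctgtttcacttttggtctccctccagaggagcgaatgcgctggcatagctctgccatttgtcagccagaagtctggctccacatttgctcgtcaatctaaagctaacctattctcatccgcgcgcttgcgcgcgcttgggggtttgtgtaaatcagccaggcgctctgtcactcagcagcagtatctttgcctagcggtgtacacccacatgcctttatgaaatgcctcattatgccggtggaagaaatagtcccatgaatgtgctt

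HC-like cells differed from SGN-like cells in laminin chains and RGD-binding integrins. They were compared with the SGN-like cells of the same 5 plates, and of 32 members tested 6 were higher and 2 lower, where 17.6% of all 15278 genes were called, 8.36% higher and 9.24% lower. The median log2 difference was 0.42 over the members and -0.38 over all genes. HC-like cells were not tested against glia-like or OM-like cells. Of the chains named below as higher, Lamb2 and Itgb5 had higher means in OM-like cells (117 and 101 CPM) than in HC-like cells (90.3 and 31.3 CPM). Lama5, Itgb6 and Itga8 had higher means in HC-like cells than in glia-like or OM-like cells. The plates behind these means differ in part. Lama5, the main alpha chain of epithelial basement membranes, was at 138 and 251 CPM on replicates 1 and 3 of E16.5, 85.9 CPM at E17.5, and 257 and 161 CPM at E18.5, against 0.743, 2.81 and 4.44 CPM (lowest, median, highest) in SGN-like cells. Every HC-like plate lay above every SGN-like plate, and the log2 difference was 5.94 (SE 0.61, adjusted p = 0.00144).

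Itgb6, an epithelial beta chain that pairs with Itgav, was at 38.0, 0, 116, 52.8 and 19.1 CPM in HC-like cells in that order and at most 0.392 CPM in SGN-like cells (log2 difference 8.76, SE 0.85, adjusted p = 0.00215). The plate at 0, replicate 3 of E16.5, held 8 HC-like cells, and the other 4 plates lay above all SGN-like plates. Itga8, a chain known from the apical surface of hair cells, was at 179, 25.3, 497, 291 and 138 CPM against 18.9, 27.5 and 34.4 CPM in SGN-like cells. The same plate fell inside the SGN-like range and the other 4 lay above it (log2 difference 2.64, SE 0.56, adjusted p = 0.0205). Lamb2 (57.4 to 114 against 0.131 to 14.6 CPM, adjusted p = 0.0415) and Itgb5 (9.26 to 57.8 against 0.131 to 5.21 CPM, adjusted p = 0.0446) were also higher, without overlap. Itga3 was lower (11.7 to 36.2 against 66.1 to 96.5 CPM, log2 difference -1.67, SE 0.41, adjusted p = 0.0325), also without overlap. Itga7 was lower too (at most 3.83 against 0.261 to 21.6 CPM, adjusted p = 0.0371), with overlap between the classes. The call of Itga7 was lost with SGN-like cells of little glial RNA, defined below (edgeR, log2 difference -1.24, adjusted p = 0.671). Itga7 is in the glial code, so its level in such cells is partly fixed by their choice. With cochlear hair cells only, the edgeR fit held no E16.5 plate, so plates and kind of cell changed together and the part of each was not tested. In that fit Lamb2 (log2 difference 4.27, adjusted p = 0.146), Itgb5 (4.21, 0.134), Itga3 (-1.50, 0.0516) and Itga7 (-3.26, 0.151) lost their calls. There 4 members were higher where 12% of all genes were called. Tnc, tenascin-C, and Thbs1, thrombospondin, were the pathway genes furthest above their SGN-like level (log2 difference 8.20, SE 1.13, and 8.01, SE 0.54).

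**Figure D3:**
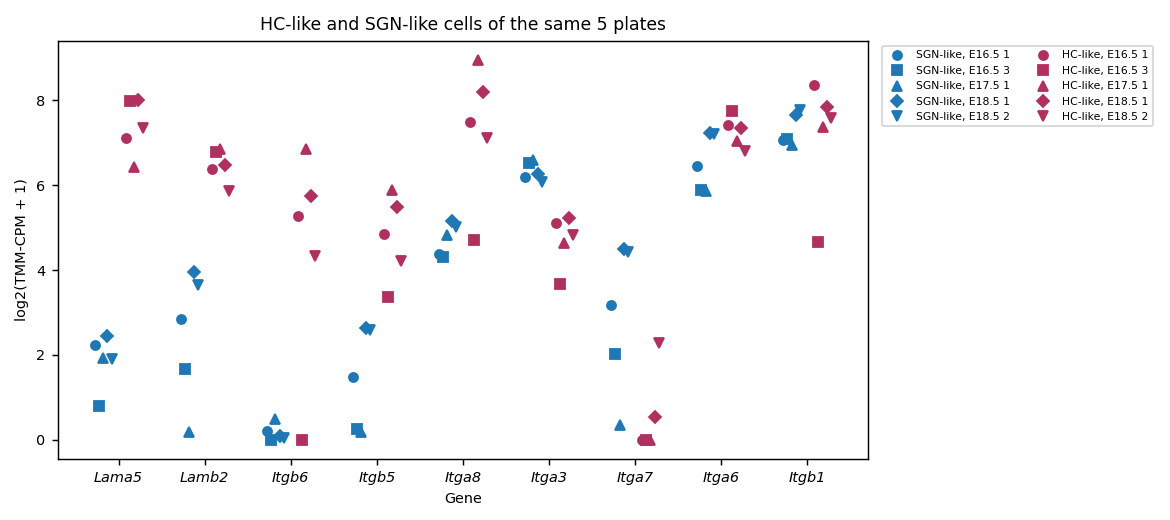
Levels of 9 laminin and integrin genes (TMM-CPM on a log2(CPM + 1) scale) in SGN-like and HC-like cells of the 5 plates with HC-like cells. Each point is a plate, with 1 symbol for each plate. Lama5, Lamb2 and Itgb5 lie above the SGN-like cells on every plate, and Itga3 lies below.

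The count of 8 members called in HC-like cells fell to 3 or 4 when replicate 1 of E16.5 (3), the plate of E17.5 (4), or replicate 1 or 2 of E18.5 (3 each) was left out. Lama5 and Itgb6 were called in each of these fits, with Lamb2 beside them without E17.5, and Itga3, Itga7, Itga8 and Itgb5 were not. On the E18.5 plates alone, which held 68 of the 85 cells, 13 members were higher and 11 lower, where 53.2% of all genes were called. The common laminin chains turned between fits that differ in both the plates and the neurons used. Lama4, Lamb1 and Lamc1 were lower in HC-like cells on the E18.5 plates alone, where the SGN-like sums held much glial RNA (log2 differences -2.75, -2.38 and -1.41). They were higher over the 5 plates when SGN-like cells with little glial RNA were used (5.37, 3.77 and 2.14). The part of the plates and of the neurons in this turn was not tested.

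Between E14.5 and E16.5/E17.5, on the SS2_20 plates and in a fit of all 3 classes, few members passed the test. Replicate 2 of E14.5, and replicate 1 by the methods of the study, had the Ntrk3 driver, and all later plates had PVcre;Ai14. Stage and Cre driver therefore cannot be told apart, wholly or in part, in any comparison with E14.5. In SGN-like cells 2 of 34 members fell and none rose, where 2.35% of 16744 genes were called, 1.48% lower and 0.872% higher. With edgeR 10 members had an unadjusted p under 0.05, as did 2523 of the 16744 genes. DESeq2 called 6 members lower and 1 higher, and its share over all genes is not given here. The 2 called with edgeR were Itgav, at 7.23 and 8.12 CPM on the E14.5 plates against 1.05 at E16.5 and 1.37 at E17.5, and Itgb5, at 4.00 and 4.96 CPM against 0.186 and 0.131 CPM (67 and 77 counts against 3 and 2). Itgav was at 5.87 and 5.38 CPM on the E15.5 plates between them. The SGN-like sums of E16.5 replicates 1 and 2, from plate series SS2_18 and outside this fit, were higher than replicate 3, at 5.31 and 4.89 CPM of Itgav and 1.79 and 1.35 CPM of Itgb5, with 1008 and 841 CPM of glia markers. Without overlap between these plates, Itgav fell by 2.65 on the log2 scale (SE 0.24, adjusted p = 0.000286) and Itgb5 fell by 4.77 (SE 0.51, adjusted p = 0.000611). The call of Itgb5 was lost when clustering used the glial code genes too (log2 difference -3.09, adjusted p = 0.099). In glia-like cells no member was called with edgeR, where 0.155% of all genes were (0.108% higher, 0.0478% lower). There 4 members had an unadjusted p under 0.05, as did 1277 of the 16744 genes, and DESeq2 called 2 (Lama2 and Itga1 higher). In OM-like cells 1 member, Itga2, was called higher, where 0.203% of all genes were called and 0.125% higher, on 1 count in each E14.5 plate against 44 and 19 counts later. The ratio of its CPM was 92.4 (95% counting interval 25.6 to 763), at a level of at most 2.41 CPM, and the call was lost when any of these 4 plates was left out.

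The stage change of Itgav and Itgb5 was tested against that in the other classes, in the same fit, which had no term for the plate. That fit took the class sums of a plate as independent, so its p-values leave out the pairing by plate. The change differed between glia-like and SGN-like cells by 2.85 for Itgav (SE 0.31, adjusted p = 0.00158) and by 4.63 for Itgb5 (SE 0.62, adjusted p = 0.00564) on the log2 scale, where 0.824% of all genes were called, 0.645% in that direction and 0.179% in the other. Between OM-like and SGN-like cells it differed by 3.21 for Itgav (SE 0.31, adjusted p = 0.000717) and 4.53 for Itgb5 (SE 0.62, adjusted p = 0.00594), where 1.1% were called, 0.693% in that direction. Glia-like cells were at 78.2 and 91.0 CPM of Itgav at E14.5 and at 90.5 and 104 CPM at E16.5 and E17.5. The difference for Itgb5 lost its call without replicate 1 or 2 of E14.5 in both classes and, for glia-like cells, without the plate of E17.5. When clustering used the code genes it was 2.96 (adjusted p = 0.31) for glia-like and 2.84 (adjusted p = 0.288) for OM-like cells. Itga7 was called as well between OM-like and SGN-like cells (10.30, SE 2.19, adjusted p = 0.0458), and that call was lost without either E14.5 plate, replicate 3 of E16.5 or the plate of E17.5, and when clustering used the code genes.

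**Figure D4:**
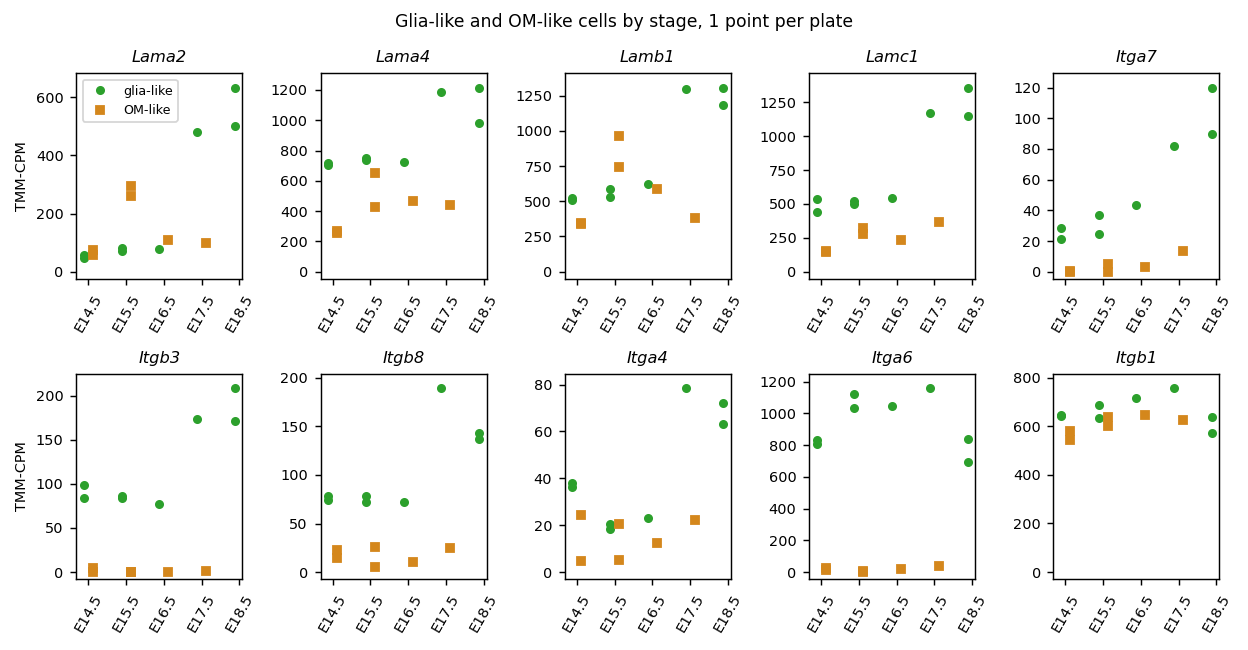
Levels of 10 laminin and integrin genes (TMM-CPM) in glia-like and OM-like cells by stage on the SS2_20 plates, with the small glia-like sums of E18.5 added. Points are plates. The glia-like plate of E17.5 stands above the earlier plates for Lama2, Lama4, Lamb1 and Lamc1.

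The glia-like sum of E17.5 stood apart from the earlier plates for several members. Lama2 was at 480 CPM there and at 46.0 to 81.7 CPM on the other 5 plates, Lamb1 at 1300 against 511 to 622 CPM, and Lamc1 at 1173 against 439 to 542 CPM. The glia-like sums of E18.5, of 13 and 8 cells and outside the tests, were near that plate, with 503 and 632 CPM of Lama2, 1184 and 1304 CPM of Lamb1 and 1152 and 1356 CPM of Lamc1. As a stage of 1 plate, E17.5 has no replicate of its own. Without replicate 3 of E16.5, which puts E17.5 alone against E14.5, Lama2 and Lamc1 were called higher in glia-like cells (log2 differences 3.20 and 1.27, adjusted p = 0.00302 and 0.0484). The summed OM markers moved with this plate, from 664 to 1244 CPM on the earlier 5 plates to 3125 CPM, and were 3043 and 3358 CPM in the E18.5 glia-like sums, and their part in the result was not tested.

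From E14.5 to E18.5 the SGN-like sums gained laminin and integrin transcripts, and glial RNA rose in the same sums. Of 35 members 15 were higher at E18.5 and 1, Lamb3, was lower, where 23.6% of 17778 genes were called, 13.9% higher and 9.63% lower, and the medians were 1.69 over members and 0.10 over all genes. Of the 15, 10 are in the glial code, which was chosen on the E18.5 cells. Stage and plate series cannot be told apart here, since E18.5 was sequenced only on SS2_19 plates, and stage is mixed with the Cre driver as above. Summed glia markers were 47.8 and 28.5 CPM in the SGN-like sums of E14.5 and 3251 and 3330 CPM in those of E18.5, where they were 21.6% and 22.6% of the level in the glia-like cells of the same plate.

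Lama4 was at 5.14 and 6.83 CPM at E14.5 and 195 and 175 CPM at E18.5, Lamb1 at 3.11 and 19.3 against 236 and 201 CPM, and Lamc1 at 30.8 and 39.4 against 226 and 204 CPM. All 3 rose without overlap (log2 differences 4.97, 4.31 and 2.63, adjusted p = 0.00297, 0.00372 and 0.000142). Lama2 had no count at E14.5 and was at 85.3 and 68.8 CPM at E18.5, at least 813-fold higher when the E14.5 plates together are set at 3 counts. In the glia-like cells of the E18.5 plates these genes times the glia marker share of the SGN-like sum gave 212 and 275 CPM for Lama4, 256 and 295 CPM for Lamb1, 249 and 307 CPM for Lamc1, and 109 CPM (replicate 1) for Lama2, each of them above what the SGN-like sums held.

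The SGN-like cells were therefore also taken with little glial RNA only, those with summed glia markers under 2% of the median in glia-like cells, which left 120 of 306 and 108 of 317 cells at E18.5. In these cells 3 members were higher at E18.5 than at E14.5 and 3 lower, and 4 of these 6 were among the 16, where 16% of all genes were called in that fit. Lama4, Lamb1, Lamc1, Itgb1 and Itgb8 turned to negative log2 differences of -2.49, -1.67, -0.71, -0.42 and -2.01, none of them past the test (adjusted p from 0.064 to 0.59). All of these, and Lama2, Itgb3, Itga6, Itga7 and Itgb5 below, are in the glial code. It was chosen on E18.5 cells by correlation with Sox10, a gene of the glia markers that set these cells apart. A lower level of its genes here is thus partly fixed by the choice of cells and is no independent evidence. Others of the 16 lost the call and stayed above their E14.5 level: Itga9 was at 2.17 and 0.323 CPM and then 12.5 and 8.12 CPM (log2 difference 2.96, adjusted p = 0.073). Itgb3 was at most 0.362 CPM and then 3.37 and 1.70 CPM (3.69, adjusted p = 0.238). Lamc3 was at 0 and then 1.44 and 3.49 CPM (adjusted p = 0.0505), and Lama2 at 0 and then 0.0919 and 0.378 CPM (adjusted p = 0.24). Itga3 and Itga8 stayed higher. Itga3 was at 20.2 and 37.6 CPM at E14.5 and 109 and 88.6 CPM at E18.5 in these cells, without overlap (log2 difference 1.70, SE 0.29, adjusted p = 0.00252). Itga8 was at 3.32 and 8.15 CPM and then 42.9 and 40.3 CPM (log2 difference 2.78, SE 0.51, adjusted p = 0.00373), also without overlap. Lamb3, Itga7 and Itgb5 were lower, and Itga7 went from 29.8 and 16.2 CPM to 0.276 and 0.779 CPM (log2 difference -5.50, SE 0.78, adjusted p = 0.000843). Itga6 no longer passed the test in these cells (log2 difference 0.30, adjusted p = 0.664).

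**Figure D5:**
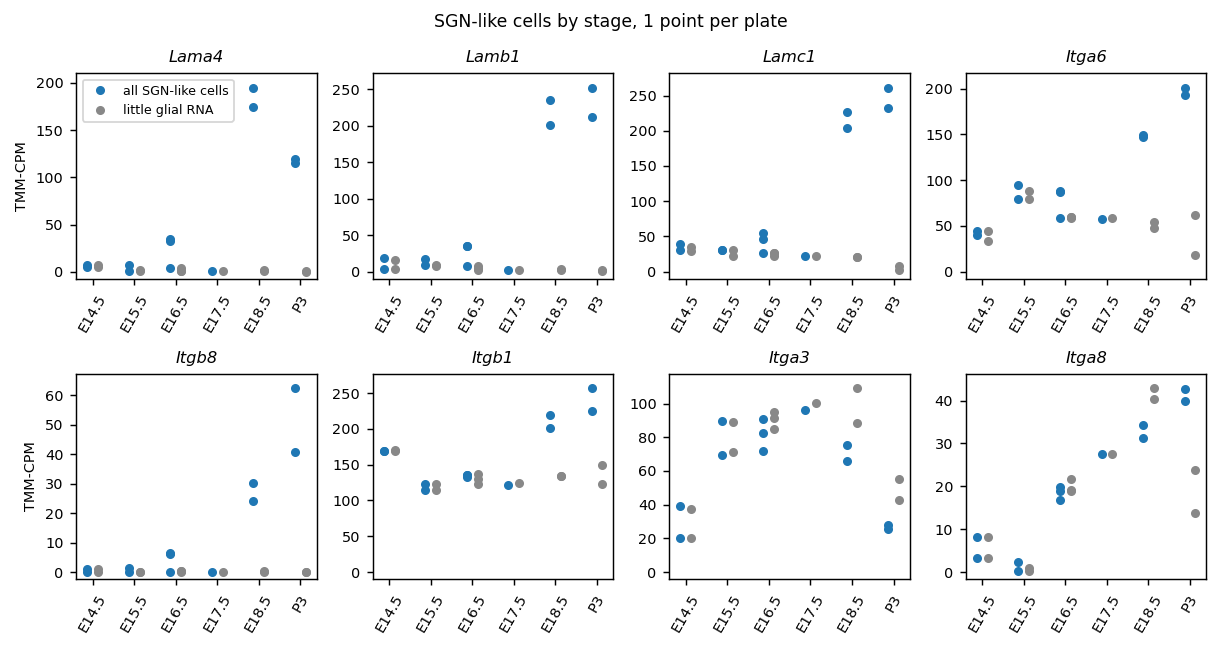
Levels of 8 laminin and integrin genes (TMM-CPM) in SGN-like cells by stage, for all SGN-like cells and for those with little glial RNA. Points are plates. Lama4, Lamb1 and Lamc1 rise at E18.5 and P3 only in the sums of all SGN-like cells, while Itga3 and Itga8 at E18.5 are as high or higher in the cells with little glial RNA. Lama4, Lamb1 and Lamc1 are in the glial code, so their low level in the cells with little glial RNA is partly fixed by the choice of cells.

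Levels were also taken by the glial RNA of the cell at E18.5. Lama4, Lamc1 and Itgb1 are in the glial code, chosen on these cells by correlation with Sox10, so their order across such cells is a description and no independent evidence. In SGN-like cells with glia markers under 2% of the glia-like median, Lama4 was at 0.386 and 1.63 CPM on the 2 plates, and it was at 296 and 243 CPM in cells between 10% and 50% and at 464 and 437 CPM in cells over 50%. Itga3 ran the other way, from 98.3 and 79.5 CPM in the first cells to 36.8 and 38.8 CPM in the last. Lamc1 kept 18.9 and 18.2 CPM and Itgb1 121 and 121 CPM in the cells of least glial RNA.

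From E18.5 to P3, 2 of 35 members fell and none rose with edgeR, where 24.8% of all genes were called, 12.1% lower and 12.7% higher. With edgeR 6 members had an unadjusted p under 0.05, as did 6355 of all 17778 genes. DESeq2 called 4 members lower and 1 higher, and its share over all genes is not given here. Itga3 went from 75.3 and 66.1 CPM to 27.8 and 25.3 CPM, without overlap, and fell by 1.39 on the log2 scale (SE 0.27, adjusted p = 0.0034). Itga4 went from 14.4 and 11.7 CPM to 3.47 and 1.77 CPM and fell by 2.29 (SE 0.40, adjusted p = 0.00205). In the cells with little glial RNA the fall of Itga4 was not past the test (log2 difference -0.36, adjusted p = 0.851), where P3 ran at 5.16 and 0 CPM, with 53 and 6 such cells at P3. There 3 members fell, where 19.2% of all genes were called, Itga3 among them (log2 difference -0.90, adjusted p = 0.0498), beside Itga7 and Lamc1. Stage and plate series cannot be told apart here either, since P3 was sequenced only on SS2_15 plates. The count rose from 2 to 5 without replicate 1 or 2 of E14.5 or of E15.5, and to 7 without replicate 3 of E16.5, plates that enter this comparison only through the shared estimate of the spread.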

How the data were processed

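Single tdTomato-positive cells of the mouse cochlea were sequenced by Smart-seq2. The authors aligned the reads (the submitters' processing notes name STAR, Scanpy and mm10) and deposited raw counts per gene and well, with ERCC spike-ins. Wells with over 1000 genes and under 5% ERCC counts were kept. Cells were clustered within each stage (scanpy 1.11.5, 2000 variable genes, 30 principal components, Leiden resolution 1) without the members, the pathway genes and the glial code, and clusters were named from markers. No doublet caller was run. Counts were summed per class and plate (at least 5 cells, 3 for hair cells) and tested with edgeR 4.0.16 (TMM factors, low-count filter, quasi-likelihood test, two-sided, Benjamini-Hochberg adjustment over all genes). Comparisons of classes had the plate as a block, since classes of a plate share its cells' source, and comparisons of stages had none. The tests of stage changes between classes had no block either, although those classes share plates. Members were described where a class mean reached 5 CPM. Scripts were tested on simulated data. Reads without molecule barcodes are not independent molecules, so counting intervals (95%) cover counting error only. A total of 384 wells of a plate with no sample were not used. Of the members, 1 is included in the counts but not reported here by its own values. The members and lists were chosen with earlier results of these data known.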

Additional observations from a re-analysis of the deposited data

Results flagged for a closer look

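Within the classes, 70 groups of 4 to 10 plates (1 member in 1 class) were examined for a plate far from the others, and 13 had one, where chance gives about 1 in 20. The groups share plates and are not independent, so no excess over chance is read from this count. Of the 13, 8 were the E17.5 plate in glia-like cells. Lama2 was at 480 CPM there (46.0 to 81.7 on the other plates), Lama4 at 1183 CPM (704 to 750), Lamb1 at 1300 CPM (511 to 622) and Lamc1 at 1173 CPM (439 to 542). Among the integrins, Itga7 was at 82.1 CPM (21.1 to 43.5), Itgb3 at 174 CPM (77.0 to 98.9), Itgb8 at 189 CPM (72.0 to 78.8) and Itga4 at 78.5 CPM (18.3 to 38.2). The same plate was apart for Lamc3 in OM-like cells, at 14.8 CPM (3.04 to 6.88).

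In HC-like cells the E17.5 plate, of 5 cells, was apart for Lama2 at 471 CPM (0 to 17.0) and Lama4 at 78.5 CPM (28.3 to 42.1), and its summed glia markers of 1763 CPM were the highest among HC-like sums. Their part in the result was not tested. Replicate 3 of E16.5, of 8 cells, was apart for Itga2 at 42.4 CPM (0 to 0.826) and Itgb7 at 39.0 CPM (0 to 11.1).

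The change from E14.5 to E16.5/E17.5 differed between classes by an interaction test (edgeR, adjusted p over all genes, no term for the plate that the classes share) in 5 cases. Against SGN-like cells it was higher in glia-like cells by 2.85 for Itgav and 4.63 for Itgb5 on the log2 scale, and in OM-like cells by 3.21 for Itgav, 4.53 for Itgb5 and 10.30 for Itga7. For Itga7 the OM-like sums of E14.5 held 7 and 0 counts.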

How the results depend on the processing

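Leaving out single plates, other size factors (RLE), DESeq2, no low-count filter, a finer clustering, clustering with the glial code genes, leaving out cells of highest counts, SGN-like cells with little glial RNA and, for class comparisons, no replicate block were tried. Over single members 1122 values kept direction and call, 108 lost the call and 6 turned. The counts of members called in glia-like and OM-like against SGN-like cells and between them stayed within 1.5 times under every setting. Without the replicate block the counts were 19, 18, 14 and 9 for glia-like against SGN-like, OM-like against SGN-like, OM-like against glia-like and HC-like against SGN-like cells. For HC-like cells (8 as reported) the count was 13 with DESeq2, 5 without the cells of highest counts, 4 with cochlear hair cells only, 24 on the E18.5 plates only, and 3 to 7 with a plate left out. The fit with cochlear hair cells only held no E16.5 plate. For E16.5/E17.5 against E14.5 it was, in SGN-like cells (2 as reported), 7 with DESeq2, 1 with the code genes in the clustering and 2 to 5 with a plate left out. In glia-like cells (0) it was 2 with DESeq2 and 0 to 2 with a plate left out. In OM-like cells (1) it was 3 with DESeq2, 0 with the code genes or without the cells of highest counts, and 0 to 1 with a plate left out. For the interactions it was 4 (glia-like) and 6 (OM-like) with DESeq2, 1 and 1 with the code genes, and 1 to 4 in both with a plate left out. For SGN-like cells at E18.5 (16) it was 6 with little glial RNA and 9 to 17 with a plate left out, and for P3 (2) it was 5 with DESeq2, 4 with no filter and 2 to 7 with a plate left out. Values turned with little glial RNA at E18.5 for Lamc1 (-0.71), Itgb1 (-0.42), Lama4 (-2.49), Lamb1 (-1.67) and Itgb8 (-2.01), where the cells used differ by construction, and for Itga2 in OM-like cells with the code genes (-2.63), where the cause was not tested. HC-like sums rest on 4 to 36 cells a plate.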

Other observations

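At E18.5 the HC-like clusters divided into cochlear (23 and 18 cells on replicates 1 and 2) and vestibular kinds (13 and 14 cells), and their levels are given as values with no test. Lama5 was at 330 and 230 CPM in cochlear and 83.3 and 62.0 CPM in vestibular cells, and Itga8 at 391 and 222 CPM against 58.9 and 18.2 CPM. Both genes were higher in the cochlear cells on both plates. Markers of other cells were higher there too, with 6055 and 2100 CPM of cartilage markers against 1686 and 1318 CPM, 596 and 310 CPM of OM markers against 126 and 54.3 CPM, and 878 and 1145 CPM of glia markers against 449 and 453 CPM. The cochlear cells also held 1497 and 1514 CPM of vestibular markers (2264 and 2479 CPM in the vestibular cells), and the part of these in the values was not tested. Lamb2 was at 107 and 84.4 CPM against 40.6 and 18.6 CPM, and Lamc1 at 106 and 108 CPM against 46.6 and 36.9 CPM. Lama1 ran the other way, at 22.1 and 32.4 CPM in cochlear and 69.3 and 65.1 CPM in vestibular cells.

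Among the OM-like clusters of E14.5 the members varied as well. Itga11, which was left out of the clustering, was at 467 and 332 CPM in cluster 8 and at 20.8 and 35.1 CPM in cluster 6. It is a leading gene of cluster 8 by fold against cells not provisionally named OM, which is no comparison with the other OM-like clusters. Itga8 was at 241 and 257 CPM in cluster 3 and at 0.404 and 0 CPM in cluster 6, one of a pair of clusters with high cartilage markers. Lama1 was at 37.5 and 47.1 CPM in cluster 1 and at most 3.82 CPM in the other clusters.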
